A study of Mus musculus with 16 samples.

Results

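The genes described here are 10 members of the Notch pathway: the receptors Notch1 and Notch2, the ligand Jag2, the sugar transferases Mfng and Lfng, the ubiquitin ligase Dtx2, the nuclear partners Rbpj, Maml1 and Maml2, and the target gene Hes1. They were taken by gene symbol, and all 10 were listed in both experiments. Maml2 was listed as 2 features under 1 name, called here the first and the second in the order of the files, so the members made up 11 of the 26595 features of the CD93 experiment, and likewise 11 of 36930 with the drug. Values are read here as RPKM, reads scaled to gene length and to the mapped reads of the library, although no label names the unit. Levels and ratios of different genes within a library are compared on that reading, and would not hold if values were not scaled to length. The lowest value is 0.003 for the CD93 experiment and 0.001 for the drug experiment, and stands for no signal.

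RNA was sequenced from mouse bone marrow cells of C57BL/6 background at 8 weeks of age, after amplification with a kit made for very small RNA inputs. KO LSC (3 libraries) and WT LSC (3 libraries) are leukemia stem cells taken by sorting from mice with CML, chronic myeloid leukemia. This CML was made by transducing sorted CD93-/- or BL/6 LSK cells with BCR-ABL1-GFP and injecting them into non-irradiated BL/6 recipients, so the hosts of both genotypes carried intact Cd93 and kept their own blood-forming cells. KO LSK (2 libraries) and WT LSK (2 libraries) are naive LSK cells, marrow cells without lineage markers that carry Sca-1 and c-Kit and include the blood stem cells, from CD93-/- and BL/6 mice without leukemia. MCP LSC (3 libraries) and Veh LSC (3 libraries) come from mice with BL/6 CML given MCP in vivo at 10 mg/kg, or Veh in its place. The series title names metoclopramide, a dopamine receptor antagonist, and links it to CD93 signalling and stem cell self-renewal. The comparisons therefore ask how the Notch genes differ with loss of CD93, with leukemia and with the drug.

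In Notch signalling a ligand of the Jagged or Delta family on 1 cell binds a Notch receptor on its neighbour. Proteases then cut the receptor, and its inner part moves to the nucleus, joins the DNA-binding protein RBPJ and a Mastermind coactivator, and switches on targets such as the repressor gene Hes1. Fringe enzymes add sugars to the receptor and so tune which ligand it answers. In blood formation the pathway is best known for directing early progenitors to the T cell lineage.

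The windows below surround the RefSeq start sites of 4 members, 250 bases before to 50 bases after the start, on build GRCm38.p6. They are shown as examples. Rbpj was the member that passed the test between genotypes in LSCs, where 8.74% of all tested genes were called lower. Notch1 and Notch2 are the receptors. Lfng was 1 of 7 member features, Dtx2 among them, that were lower in WT LSCs than in WT LSK cells. Of all tested genes 42.3% were lower there, and the call of Lfng was lost under quantile normalization. Capitals mark the letters TGGGAA, the core that RBPJ is known to bind, or its reverse complement TTCCCA. The windows are Rbpj at chr5:53590096-53590395 (plus strand), Lfng at chr5:140607091-140607390 (plus strand), Notch1 at chr2:26503773-26504072 (minus strand) and Notch2 at chr3:98013288-98013587 (plus strand), each printed 5′ to 3′ along the gene.
Rbpj: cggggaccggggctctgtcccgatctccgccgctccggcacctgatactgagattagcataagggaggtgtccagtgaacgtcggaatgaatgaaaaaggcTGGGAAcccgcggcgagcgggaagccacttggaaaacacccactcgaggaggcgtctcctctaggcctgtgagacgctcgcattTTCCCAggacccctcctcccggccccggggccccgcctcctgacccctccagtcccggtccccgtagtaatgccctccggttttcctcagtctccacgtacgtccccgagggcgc
Lfng: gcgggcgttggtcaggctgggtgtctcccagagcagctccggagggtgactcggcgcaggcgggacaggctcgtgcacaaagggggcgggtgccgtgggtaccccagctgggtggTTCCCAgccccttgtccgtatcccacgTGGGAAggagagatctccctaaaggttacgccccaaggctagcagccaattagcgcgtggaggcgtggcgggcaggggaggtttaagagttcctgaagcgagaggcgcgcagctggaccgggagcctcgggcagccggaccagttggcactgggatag
Notch1: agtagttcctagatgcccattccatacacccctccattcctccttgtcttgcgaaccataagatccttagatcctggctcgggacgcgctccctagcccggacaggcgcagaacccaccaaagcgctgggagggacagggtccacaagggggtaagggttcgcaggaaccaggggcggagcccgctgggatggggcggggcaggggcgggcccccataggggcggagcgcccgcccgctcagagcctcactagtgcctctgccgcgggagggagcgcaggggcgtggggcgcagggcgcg
Notch2: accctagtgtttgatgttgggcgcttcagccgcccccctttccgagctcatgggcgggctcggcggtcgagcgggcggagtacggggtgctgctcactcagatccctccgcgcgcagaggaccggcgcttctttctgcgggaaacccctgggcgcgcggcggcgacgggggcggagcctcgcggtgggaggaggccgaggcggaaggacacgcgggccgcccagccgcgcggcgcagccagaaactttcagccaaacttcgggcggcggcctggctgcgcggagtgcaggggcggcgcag

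The RBPJ core stood 2 times in the Rbpj window, with its first bases at positions −149 and −65 relative to the start, and 2 times in the Lfng window, at −135 and −108. The windows of Notch1 and Notch2 held no match to these letters. RefSeq windows were matched for 8 of the 10 members, 10 windows in all because Rbpj and Maml2 have 2 each, and the 2 Rbpj windows overlap. The core was in 5 of these 10 windows, those of Rbpj (both), Lfng, Dtx2 and the second of Maml2, against 25.6% of 32851 windows of the same length genome-wide. The GC box GGGCGG, searched on both strands like the others, was in 6 of the 10 windows, against 35.7% of all windows. Bases G and C made up 46.0% (Dtx2) to 86.0% (Jag2) of the member windows, against a median of 52.7% over all windows. Only the Dtx2 window and the first of Maml2 lay below that median, and the shares over all windows were not matched for it. The N-box CACNAG, a site type bound by HES proteins, was in 5 of the 10, against 42.5%. The TATA box TATAAA was in 1 of the 10, the window of Dtx2, against 13.6%. These letter matches describe the windows and are not binding sites shown by these data.

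The libraries of the CD93 experiment differed widely in how many features they detected. The KO LSC libraries gave a signal for 1230 to 2967 features and the WT LSC libraries for 5525 to 7956, against 14279 to 14906 in the LSK libraries. Of 13485 tested genes, 70.6% had no signal in any KO LSC library and 30.9% had none in any WT LSC library, against 0.69% for KO LSK and 0.638% for WT LSK. The targeted gene Cd93 was listed at 0.003, 44.3 and 0.003 RPKM in KO LSC libraries 1, 2 and 3, and at 0.003, 0.003 and 5.74 in the WT LSC libraries. In LSK cells Cd93 was 1.01 and 2.10 in KO, against 5.34 and 22.9 in WT. The second library labelled KO LSC therefore goes against its label, although the deleted part of the gene is not named in the labels. LSK markers also differed: 1 of 10 was above the lowest value in each KO LSC library and 3 to 6 of 10 in the WT LSC libraries, against 10 of 10 in every LSK library. Kit, which encodes c-Kit, was at 0.003 in all 3 KO LSC libraries. The drug experiment had no such gap, with signal for 15587 to 16447 features in MCP and 19554 to 20014 in Veh, and all 10 LSK markers detected in each library.

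No Notch member was detected in leukemic stem cells labelled KO. All 11 features were at 0.003 in each of the 3 KO LSC libraries. In WT LSCs 5, 2 and 1 of the 11 features were above that value in libraries 1, 2 and 3, so Notch1 and Rbpj were the members seen in more than 1 of them. In KO LSK all 11 features were detected in both libraries, and in WT LSK 11 and 10. Fewer cells of a type and less RNA per cell cannot be told apart in such bulk samples, and the part of the low detection in these differences was not tested.

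**Figure D1:**
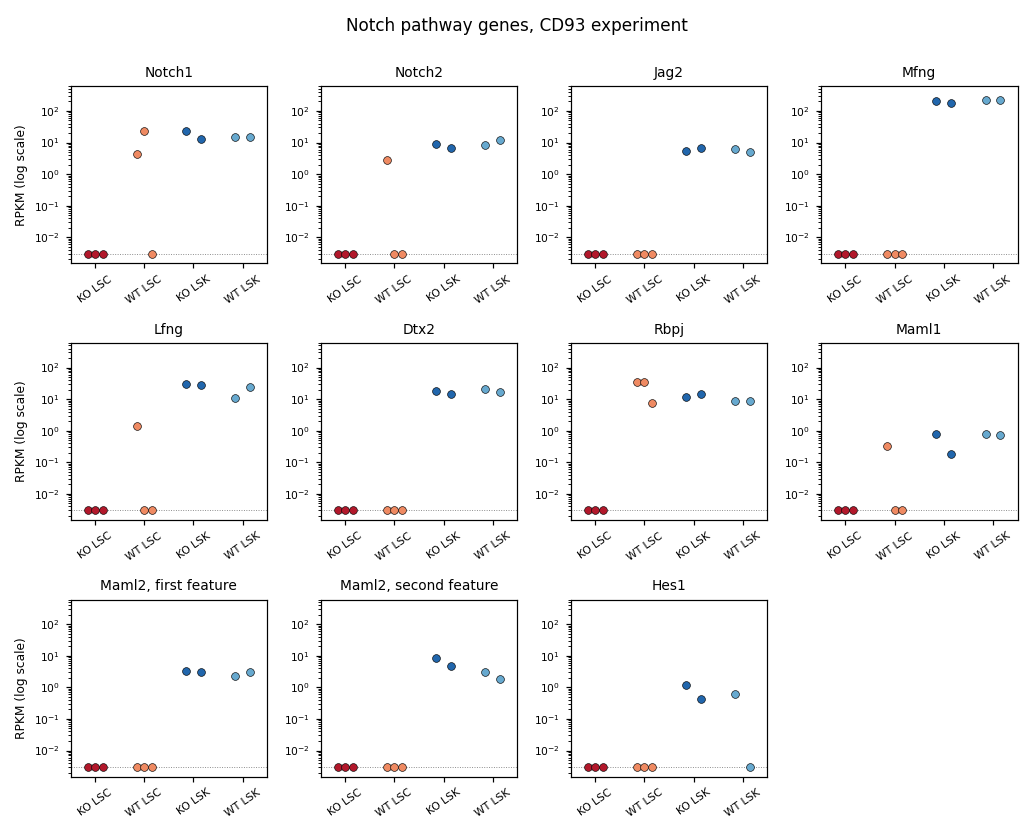
RPKM of the 11 Notch pathway features in each library of the CD93 experiment, on a log axis, 1 point per library, with the dotted line at the lowest value of 0.003. All KO LSC points lie on that line, WT LSC points leave it for Rbpj in all 3 libraries and for Notch1 in 2, and the LSK points of all members but Maml1 and Hes1 lie above 1 RPKM.

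Notch1, the receptor of early T cell progenitors (GRCm38 chromosome 2, 26457903 to 26516663, minus strand, protein-coding), was at 0.003 RPKM in all 3 KO LSC libraries, against 4.31, 22.4 and 0.003 in WT LSC libraries 1, 2 and 3. The groups overlapped at the lowest value, and WT LSC library 2 lay within the range of the LSK libraries. Notch1 did not pass between KO and WT LSCs (limma, two-sided, adjusted p = 0.236). Without WT LSC library 3, the library where it was not detected, its adjusted p was 0.00931.

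Notch1 measured 23.8 and 13.2 RPKM in KO LSK, against 15.02 and 15.4 in WT LSK. The KO libraries lay on either side of the WT libraries, and the log2 difference of 0.21 had a 95% interval of −2.61 to 3.03. Between WT LSC and WT LSK it was −1.70 (SE 1.11, adjusted p = 0.264), which took a positive value of 0.71 under quantile normalization and passed without WT LSC library 2 (−2.81, adjusted p = 0.0190). Between KO LSC and KO LSK Notch1 passed as lower (adjusted p = 0.0116), a call lost without KO LSK library 1 (adjusted p = 0.0814). Models of the opposite strand, 0610009E02Rik and Gm13568, overlap Notch1, and whether strand was used in counting is not given in the sources used here.

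Notch2, the other receptor (chromosome 3, 98013527 to 98150361, plus strand, protein-coding), is known for directing marginal zone B cells. It had no signal in KO LSC, against 2.84, 0.003 and 0.003 RPKM in WT LSC libraries 1, 2 and 3. It was 8.81 and 6.64 in KO LSK, against 8.33 and 12.2 in WT LSK. The genotypes overlapped in both cell types and neither comparison passed. Every LSC library was below every LSK library, and Notch2 was lower in WT LSC than in WT LSK (log2 −2.82, SE 0.57, adjusted p = 0.00443), a difference that was 0.0085 (adjusted p = 0.986) under quantile normalization. Within each LSK library Notch2 stood below Notch1, at 0.371 and 0.502 times its level in KO and 0.554 and 0.792 times in WT.

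Jag2, a ligand of Notch receptors (chromosome 12, 112907819 to 112929776, minus strand), was not detected in any of the 6 LSC libraries of this experiment. It measured 5.24 and 6.80 RPKM in KO LSK, against 6.07 and 5.08 in WT LSK. The genotypes interleaved, with a log2 difference of 0.09 and a 95% interval of −0.40 to 0.57.

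Mfng, the Manic Fringe sugar transferase (chromosome 15, 78755882 to 78773475, minus strand), was the member with the highest level in LSK cells and was not detected in any LSC library of this experiment. It was at 0.003 in 3 KO LSC and 3 WT LSC libraries, against 199.7 and 176 RPKM in KO LSK and 223 and 230.0 in WT LSK. Both KO LSK values lay below both WT LSK values, by log2 −0.27 (SE 0.43, adjusted p = 1). Mfng was lower in LSC than in LSK in KO (adjusted p = 5.21e-06) and in WT (adjusted p = 4.52e-06), and it was the member called lower in both comparisons under quantile normalization as well, where the log2 differences were −4.94 in KO and −5.99 in WT. Its LSC values, all at 0.003 as deposited, added no spread to the error estimate, so the adjusted p-values given may be too small.

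Lfng, Lunatic Fringe, which acts on the same receptors (chromosome 5, 140607320 to 140615545, plus strand), had no signal in any KO LSC library, against 1.42, 0.003 and 0.003 RPKM in WT LSC. It was 30.0 and 28.7 in KO LSK, against 11.1 and 23.9 in WT LSK. Both KO LSK libraries were above both WT LSK libraries, by log2 0.81 (SE 0.53, adjusted p = 1), and the WT pair differed more among themselves than the KO pair. Mfng stood 6.67 and 6.11 times above Lfng within the KO LSK libraries, and 20.2 and 9.64 times within the WT LSK libraries. Lfng was lower in WT LSC than in WT LSK (log2 −3.68, SE 0.48, adjusted p = 0.000382), a call lost under quantile normalization (−0.47, adjusted p = 0.355).

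Dtx2, a Deltex ubiquitin ligase that acts on Notch receptors (chromosome 5, 135994800 to 136032872, plus strand), was not detected in any LSC library of this experiment. It was 17.5 and 14.5 RPKM in KO LSK, against 21.1 and 17.4 in WT LSK. The genotypes overlapped by a small margin, and the difference of log2 −0.25 had a 95% interval of −0.83 to 0.33.

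Rbpj, the DNA-binding protein through which all Notch receptors act (chromosome 5, 53466152 to 53657362, plus strand), set KO and WT leukemic cells apart. It was at 0.003 in all 3 KO LSC libraries, against 35.2, 33.7 and 7.38 RPKM in WT LSC. The groups did not overlap, and each WT LSC library carried Rbpj, including the 1 in which no other member was detected. Rbpj was lower in KO LSC (limma, adjusted p = 0.00214), the sole call among 9 tested member features, against 8.74% of all tested genes called lower and 0.0742% called higher. The split over all genes moved to 745 lower and 562 higher with quantile normalization, to 358 lower and none higher in a model of the 6 LSC libraries alone, and to 2056 lower and 9 higher without WT LSC library 3. The model of the LSC libraries ended the call of Rbpj (adjusted p = 0.102), and with all values at 0.003 in KO no fold is given.

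In LSK cells the order of the genotypes was the other way for Rbpj. It was 11.6 and 14.9 RPKM in KO LSK, against 8.61 and 8.43 in WT LSK. The groups did not overlap, but the log2 difference of 0.57 (SE 0.72) did not pass (adjusted p = 1). This SE also draws on the LSC libraries of the same model, and Rbpj ranged from 7.38 to 35.2 RPKM in WT LSC. The difference between the KO effect in LSCs and in LSK cells passed for Rbpj (log2 −5.02, SE 0.93, adjusted p = 0.0202), the 1 of 9 member features to do so, against 5.15% of all tested genes lower and 0.934% higher. This call was lost without KO LSC library 3 (adjusted p = 0.0592), KO LSK library 2 (0.0580), WT LSK library 1 (0.0507) or WT LSK library 2 (0.0630), and with quantile normalization.

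Rbpj was also the member whose level in WT LSCs exceeded that in WT LSK cells in 2 of 3 libraries. The log2 difference of 1.20 (SE 0.66, adjusted p = 0.183) did not pass, while without WT LSC library 3 it was 1.90 (adjusted p = 0.00211) and under quantile normalization 2.54 (adjusted p = 0.00468). The models Gm10441 and Gm40304 on the opposite strand overlap Rbpj.

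Maml2, a Mastermind coactivator (chromosome 9, 13297957 to 13709388, plus strand), was not detected in any LSC library of this experiment in either feature. The second feature measured 8.36 and 4.82 RPKM in KO LSK, against 3.11 and 1.90 in WT LSK. Its groups did not overlap, and the log2 difference of 1.096 (SE 0.28) had an adjusted p of 0.140, which became 0.0158 without KO LSK library 2 and 0.0453 without WT LSK library 1. The first feature was 3.28 and 3.06 in KO LSK, against 2.34 and 2.999 in WT LSK, a log2 difference of 0.19 (SE 0.18, adjusted p = 1). What distinguishes the 2 features is not given in the sources used here, and their reads may have been divided between them.

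Maml1, a related coactivator (chromosome 11, 50255634 to 50292311, minus strand), and Hes1, a target and repressor gene (chromosome 16, 30064384 to 30067796, plus strand), were too low to be tested in this experiment, where testing needed at least 1 RPKM in at least 2 libraries. Maml1 was 0.764 and 0.181 in KO LSK, against 0.787 and 0.749 in WT LSK, and 0.317 in WT LSC library 1, its only detection in LSCs. Hes1 was 1.23 and 0.435 in KO LSK, against 0.608 and 0.003 in WT LSK, and was not detected in LSCs. The genotypes overlapped for both genes. This target stayed at 1.23 RPKM or below in LSK libraries where Notch1 was at 13.2 RPKM or above. Other listed targets did not move together. Nrarp ranged from 0.003 to 3.02 in KO LSK and from 0.391 to 3.49 in WT LSK. Tcf7 ranged from 0.809 to 3.14 in KO LSK and from 0.189 to 6.07 in WT LSK, so both genes overlapped. Il2ra was detected in KO LSK library 2 alone, at 2.29. Gata3 ranged from 9.70 to 11.4 in KO LSK and from 13.2 to 13.4 in WT LSK, and did not pass. Hes5 ranged from 11.4 to 14.6 in KO LSK and from 1.61 to 1.71 in WT LSK. Hey1, Hey2, Heyl and Ptcra were at 0.003 in all LSK libraries.

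Counted over the tested member features, 0 of 9 passed between KO and WT LSK cells (limma, 1 at unadjusted p under 0.05), against 0.816% of all tested genes higher and 1.02% lower. The LSC libraries entered the error estimates of these LSK comparisons. For Jag2, Mfng, Dtx2 and Maml2 all LSC values were 0.003 and added no spread, so their SEs and intervals may be too narrow. KO LSK lay wholly above WT LSK for 4 features (Lfng, Rbpj and both of Maml2) and wholly below for 1 (Mfng), against 14% and 20.5% of all tested genes. The median log2 difference of the members was 0.19, against −0.11 over all tested genes. In LSCs, 8 of the 9 member features overlapped between KO and WT, 5 of them because every library of both groups was at 0.003, and Rbpj was wholly below, against 14.1% of all tested genes wholly below and 0.564% wholly above.

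Leukemic and naive cells differed in most members. KO LSC was lower than KO LSK in all 9 tested features (adjusted p from 5.21e-06 to 0.0116), against 61.7% of all tested genes lower and 0.564% higher. Every one of these 9 lacked a signal in KO LSC, so their differences measure the LSK level. WT LSC was lower than WT LSK in 7 of the 9 (all but Notch1 and Rbpj), against 42.3% of all tested genes lower and 1.45% higher, and 5 of the 7 had no signal in any WT LSC library. Groups with every library at 0.003 added no spread to the error estimates, so the adjusted p-values of both comparisons may be too small. The median log2 difference of the members was −3.82 in KO, where it was −3.06 over all tested genes, and −2.71 in WT, where it was −1.94. Under quantile normalization, which moved the medians of all tested genes to 0.12 in KO and 0.23 in WT, 2 features (Mfng and Lfng) were lower in KO LSC and the first feature of Maml2 was higher, beside 1755 lower and 2013 higher of all 13485 tested genes. This Maml2 feature had no signal in KO LSC, so its higher call rests on the level that the scaling gives to the lowest value. In WT LSC 2 (Mfng and Dtx2) were then lower and 1 (Rbpj) higher, beside 1568 lower and 1351 higher of all genes, while Notch2 and the second feature of Maml2 took positive values in both comparisons. The second feature of Maml2 had no signal in any of these LSC libraries, and Notch2 had none in KO LSC. Their positive values there also rest on the level given to the lowest value. Neutrophil markers summed to 48177 to 84461 RPKM in KO LSC and 87489 to 144198 in WT LSC, against 5834 to 6778 in KO LSK and 5486 to 8989 in WT LSK. LSK markers summed to 1.34 to 303.6 in KO LSC and 37.6 to 121 in WT LSC, against 1361 to 1657 in KO LSK and 1747 to 2715 in WT LSK. Of 9 T and NK cell markers 9 were detected in KO LSK and 7 to 9 in WT LSK. In LSC this was 0 to 2 in KO and 1 to 3 in WT, while the sums overlapped. Of 7 B cell markers 4 to 5 were detected in KO LSK and 6 in WT LSK, against 0 to 1 in KO LSC and 0 to 2 in WT LSC. Of 5 endothelial markers 5 were detected in KO LSK and 4 to 5 in WT LSK, against 0 and 0 to 1. Macrophage and erythroid sums were higher in LSC than in LSK. The part of these marker lists in the Notch differences was not tested.

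With the values read as RPKM, the order of the members by level was led by Mfng in LSK cells. In KO LSK its mean of 188 RPKM was followed by Lfng (29.3), Notch1 (18.5), Dtx2 (16.03), Rbpj (13.3), Notch2 (7.73), the second feature of Maml2 (6.59), Jag2 (6.02), the first feature of Maml2 (3.17), Hes1 (0.83) and Maml1 (0.473). Neighbours in this order overlapped for Notch1 and Dtx2, Dtx2 and Rbpj, Notch2 and Maml2, Maml2 and Jag2, and Hes1 and Maml1. In WT LSK Mfng (227) was followed by Dtx2 (19.2), Lfng (17.5), Notch1 (15.2), Notch2 (10.2) and Rbpj (8.52), where Dtx2 and Lfng, Lfng and Notch1, and Notch2 and Rbpj overlapped. Below them stood Jag2 (5.58), the Maml2 features (2.67 and 2.50, overlapping), Maml1 (0.768) and Hes1, at 0.608 in the library that detected it.

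In the drug experiment all 11 features were detected in all 6 libraries, and none passed between MCP and Veh. Notch1, Notch2, Rbpj, Maml1, Mfng, Lfng and the first feature of Maml2 lay lower in each MCP library than in any Veh library, and Dtx2 lay higher. Of all tested genes 25.6% lay wholly lower in this way and 4.91% wholly higher. The median log2 difference of the members was −0.51, against −0.18 over all tested genes.

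**Figure D2:**
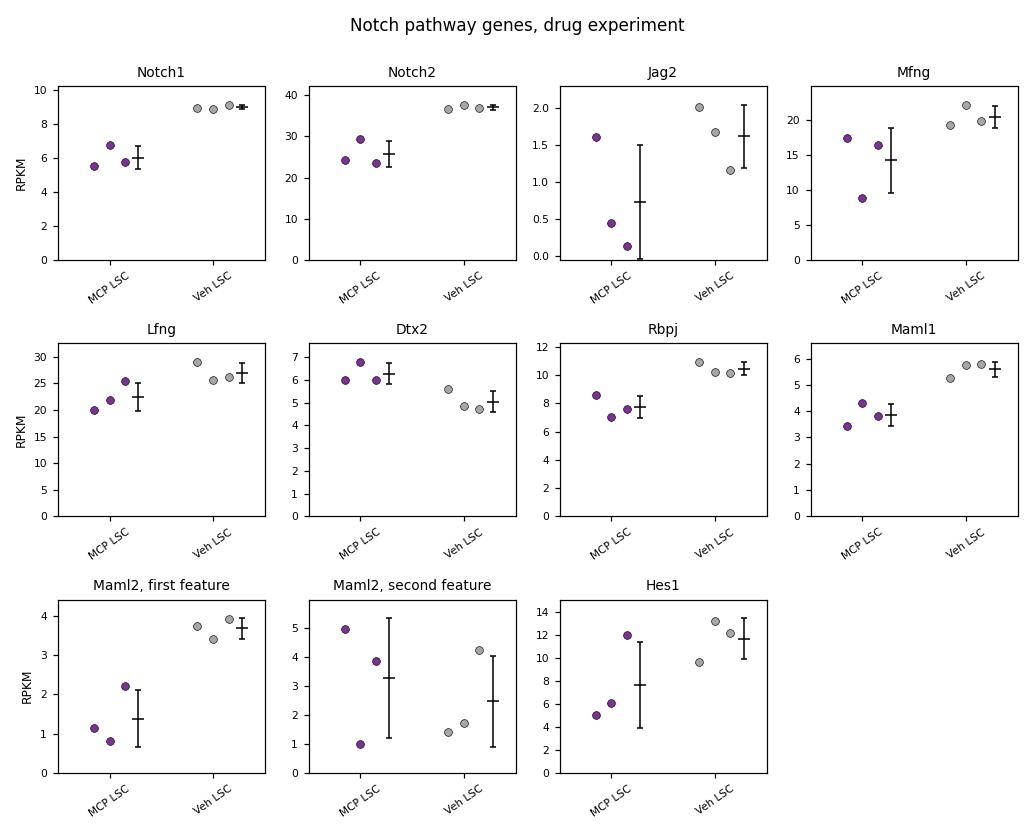
RPKM of the 11 Notch pathway features in each library of the drug experiment on linear axes, 1 point per library, with the mean and SD of the 3 libraries beside them. The MCP points lie below all Veh points in 7 panels, above them in the Dtx2 panel and among them for Jag2, Hes1 and the second feature of Maml2.

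Notch1 measured 5.53, 6.78 and 5.78 RPKM in MCP LSC, against 8.96, 8.92 and 9.14 in Veh LSC. The Veh libraries were tightly grouped and all above the MCP libraries. The log2 difference was −0.51 (95% interval −0.92 to −0.11), with an adjusted p of 0.142 (limma). Notch2 measured 24.3, 29.5 and 23.4 in MCP, against 36.6, 37.7 and 37.0 in Veh. It too was separated, by log2 −0.52 (95% interval −0.79 to −0.24, adjusted p = 0.0675), the smallest adjusted p among the members. Without MCP library 2 the difference was −0.62 and passed (adjusted p = 0.0429). The receptors kept a steady ratio, with Notch2 between 4.06 and 4.39 times Notch1 in the MCP libraries and between 4.05 and 4.22 times in the Veh libraries. The CD93 experiment, whose table was normalized separately, had the opposite order of the receptors in every LSK library.

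Jag2 was 1.61, 0.442 and 0.136 RPKM in MCP, against 2.01, 1.68 and 1.16 in Veh. MCP library 1 fell within the Veh range and the other two were lower, and the difference of log2 −0.68 had a wide 95% interval, −1.53 to 0.18. Jag2 had the lowest mean level of the 11 features in both drug groups.

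Mfng was 17.3, 8.88 and 16.4 RPKM in MCP, against 19.2, 22.1 and 19.9 in Veh. The groups did not overlap, and MCP library 2 was low beside its group. The log2 difference was −0.54 (SE 0.24, adjusted p = 0.234). Lfng was 20.0, 21.9 and 25.4 in MCP, against 29.1, 25.6 and 26.1 in Veh, a narrow separation of log2 −0.26 (SE 0.13, adjusted p = 0.275). Unlike in LSK cells, where it was the higher Fringe, Mfng stood at 0.406 to 0.864 times Lfng in the MCP libraries and 0.66 to 0.865 times in the Veh libraries, on the separately normalized values of this experiment.

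Dtx2 was 6.00, 6.82 and 6.01 RPKM in MCP, against 5.60, 4.86 and 4.71 in Veh. It was the 1 member with all MCP libraries above all Veh libraries, by log2 0.27 (95% interval −0.17 to 0.71, adjusted p = 0.433).

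Rbpj was 8.60, 7.01 and 7.63 RPKM in MCP, against 10.96, 10.2 and 10.2 in Veh. The groups did not overlap, by log2 −0.39 (95% interval −0.77 to −0.01, adjusted p = 0.206). Maml1 was 3.44, 4.29 and 3.81 in MCP, against 5.26, 5.74 and 5.78 in Veh, likewise separate, by −0.45 (SE 0.20, adjusted p = 0.228). The first feature of Maml2 was 1.14, 0.809 and 2.20 in MCP, against 3.74, 3.40 and 3.92 in Veh. It had the most negative difference of the 11, log2 −1.02 (95% interval −1.68 to −0.35, adjusted p = 0.101).

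The second feature of Maml2 was 4.98, 0.98 and 3.86 RPKM in MCP, against 1.41, 1.73 and 4.26 in Veh. Its libraries interleaved and its estimate of log2 0.25 changed sign, to −0.070, without MCP library 1. Hes1, the readout gene, was 5.01, 6.04 and 11.9 in MCP, against 9.68, 13.2 and 12.1 in Veh. MCP library 3 lay within the Veh range, and the difference was log2 −0.62 (95% interval −1.33 to 0.09, adjusted p = 0.270).

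**Figure D3:**
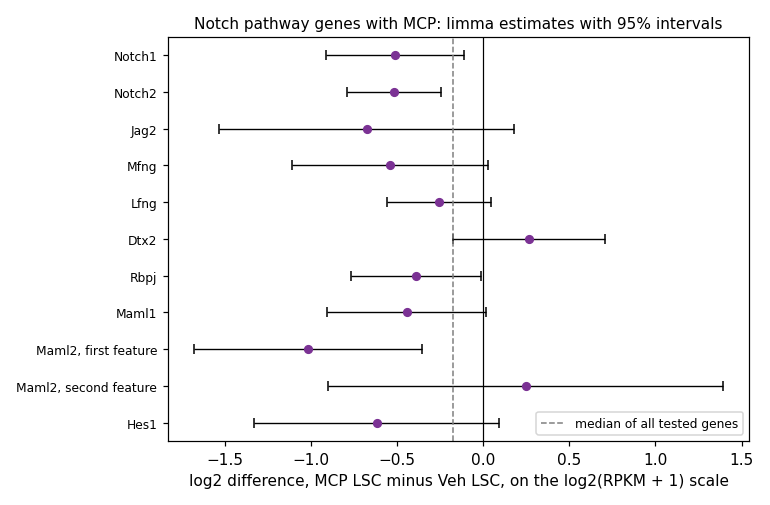
Log2 difference between MCP and Veh LSCs for the 11 Notch pathway features, with 95% intervals from limma that are not adjusted for the number of genes, and a dashed line at −0.18, the median of all tested genes. The points of 9 features lie below 0 and those of Dtx2 and the second feature of Maml2 above it, and 4 intervals leave out 0.

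Of the 11 features 0 passed (limma, 4 at unadjusted p under 0.05), against 0.521% of all tested genes higher and 1.8% lower. At unadjusted p under 0.05 stood 3226 of 14005 tested genes. The balance of calls over all genes depended on scaling and on single libraries: 295 were higher and 142 lower with each library centred, and 109 higher and 151 lower under quantile normalization. The 73 higher and 252 lower calls became 46 in total without Veh library 1, 79 without library 2 and 25 without library 3. The MCP libraries lay wholly below the Veh libraries for 7 of the 11 features, against 25.6% of all tested genes, and wholly above for 1, against 4.91%. Centring each library on the median of the tested genes detected in all 6 moved the median of all tested genes to −0.0044 and the differences of Notch1 and Notch2 to −0.34 each. Mast cell and basophil markers summed to 25.7 to 35.4 RPKM in MCP, against 146 to 161 in Veh, and LSK markers to 262 to 277, against 405 to 426. Neutrophil markers summed to 4831 to 4995 in MCP, against 3188 to 3439 in Veh. Of 9 T and NK cell markers 3 to 4 were above the lowest value in MCP and 5 to 7 in Veh, with Cd3e at 0.001 in all 6 libraries. The sums of these markers overlapped, at 83.2 to 134 RPKM in MCP and 79.8 to 92.7 in Veh. The part of these cells in the Notch values was not tested.

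By level, again with the values read as RPKM, Notch2 led the members in both drug groups. In MCP its mean of 25.7 RPKM was followed by Lfng (22.4), Mfng (14.2), Rbpj (7.75), Hes1 (7.66), Dtx2 (6.28) and Notch1 (6.03), then by Maml1 (3.85), the Maml2 features (3.27 for the second and 1.38 for the first) and Jag2 (0.728). Here Notch2 overlapped with Lfng, and the neighbours from Rbpj to Notch1 and from Maml1 to Jag2 overlapped. In Veh the order was Notch2 (37.1), Lfng (26.9), Mfng (20.4), Hes1 (11.7), Rbpj (10.5), Notch1 (9.01), Maml1 (5.59), Dtx2 (5.05), the first (3.68) and the second (2.47) feature of Maml2 and Jag2 (1.62). Neighbours overlapped for Hes1 and Rbpj, Maml1 and Dtx2, the Maml2 features, and the second of these and Jag2.

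A further 54 genes of the pathway put the members in context, with 41 of them tested for CD93 and 42 for the drug. Receptors Notch3 and Notch4 and the ligands Jag1, Dll3 and Dll4 were too low to be tested in either experiment. In LSCs 5 of 41 were lower in KO than in WT and 0 were higher (limma, 9 at unadjusted p under 0.05), beside the 8.74% and 0.0742% of all genes given above. Among them were the ubiquitin ligases Mib2, which acts on Notch ligands, and Itch, which acts on the receptor, and the corepressor genes Spen and Hdac1, whose proteins hold Notch targets silent with RBPJ. Mib2 was at 0.003 in all 3 KO LSC libraries, against 19.2, 41.8 and 34.0 RPKM in WT LSC (adjusted p = 0.000681). Itch was 1.18, 0.003 and 0.003 in KO LSC, against 18.7, 29.3 and 31.6 in WT LSC (adjusted p = 0.000922). Spen was 2.31, 0.003 and 0.003 in KO LSC, against 17.7, 16.8 and 28.6 in WT LSC (adjusted p = 0.00399). Hdac1 was 2.68, 0.003 and 0.003 in KO LSC, against 15.9, 26.2 and 24.3 in WT LSC (adjusted p = 0.00797). These 4 genes were at 0.003 in KO LSC libraries 2 and 3. With a model of the LSC libraries alone the adjusted p was 0.0643 for Itch, 0.124 for Spen and 0.127 for Hdac1, and under quantile normalization these 3 calls were also lost. Weighting the libraries ended them too (adjusted p = 0.451, 0.903 and 0.967).

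In LSK cells the target gene Hes5 was higher and Pofut1 lower in KO than in WT, 1 gene each way of 41 tested, beside 0.816% of all tested genes higher and 1.02% lower. Hes5, a repressor gene related to Hes1, was 11.4 and 14.6 RPKM in KO LSK, against 1.71 and 1.61 in WT LSK (log2 2.39, SE 0.20, adjusted p = 0.00208). Pofut1, the enzyme that adds the first sugar on which Fringe acts, was 2.31 and 1.56 in KO LSK, against 6.99 and 11.4 in WT LSK (log2 −1.77, SE 0.26, adjusted p = 0.0157). Both genes were separate between genotypes, and both were at 0.003 in all 6 LSC libraries, which entered the same error estimate. With the 4 LSK libraries alone the adjusted p was 0.775 for Hes5 and 0.820 for Pofut1, and under quantile normalization 0.0975 and 0.213. Hes1, by contrast, did not reach testing.

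**Figure D4:**
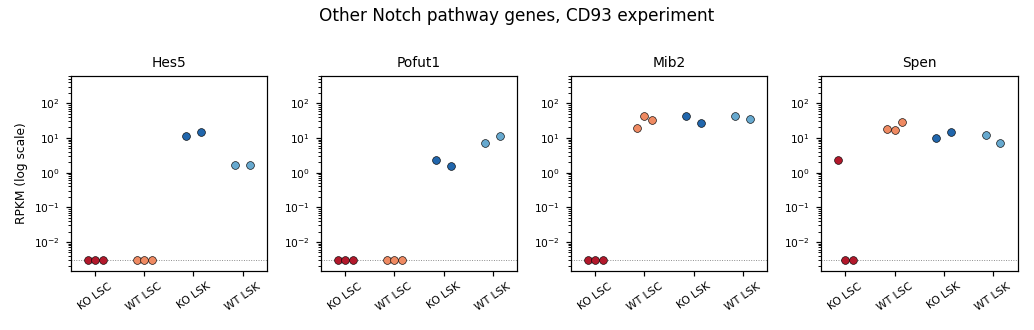
RPKM of Hes5, Pofut1, Mib2 and Spen in each library of the CD93 experiment, on a log axis, 1 point per library, with the dotted line at 0.003. Hes5 and Pofut1 leave that line in LSK libraries alone, while Mib2 and Spen are present in every WT LSC and LSK library and Mib2 is on the line in all 3 KO LSC libraries.

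Between leukemic and naive cells 26 of the 41 other pathway genes were lower in KO LSC and 19 in WT LSC, with 0 higher in each (limma, 28 and 23 at unadjusted p under 0.05). Of all tested genes 61.7% were lower in KO LSC and 42.3% in WT LSC, and the counts by role below stand beside the same shares. In WT the 6 with the smallest p were Gata3, a T cell regulator, the corepressors Ctbp1 and Tle3, the protease subunit Aph1b, and the sugar transferases Pofut1 and Poglut1. Of these, Ctbp1 and Poglut1 passed under quantile normalization too (log2 −1.62 and −1.20). Under that scaling 4 of the 41 were lower and 7 higher in KO LSC, and 5 were lower and 1 higher in WT LSC, beside the all-gene counts under that scaling given above. By role, the 5 sugar transferase genes, Mfng and Lfng among them, were all lower in both comparisons, while under quantile normalization 2 of 5 passed as lower and 1 as higher in KO LSC, and 2 as lower in WT LSC. All 5 were at 0.003 in every KO LSC library, so that higher call rests on the level this scaling gives to no signal. The same holds for the 1 ligand and the 2 target genes among the higher calls in KO LSC. All listed ligands and target genes were at 0.003 in every KO LSC library. Of the nuclear complex, members included, 6 of 9 tested features were lower in KO LSC and 3 of 9 in WT LSC, which became 1 lower and 2 higher in KO LSC and 1 each way in WT LSC under quantile normalization. The first feature of Maml2, without signal in KO LSC, was 1 of these 2 higher calls.

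With MCP 2 of the 42 other pathway genes were lower and 0 higher (limma, 19 at unadjusted p under 0.05), beside the 1.8% and 0.521% of all genes given above. Tcf7, a transcription factor gene that Notch switches on in T cell progenitors, was 0.836, 1.63 and 1.28 RPKM in MCP, against 7.003, 5.12 and 6.37 in Veh (log2 −1.68, SE 0.25, adjusted p = 0.0260). Furin, whose protease trims Notch receptors on their way to the surface, was 20.6, 18.8 and 21.2 in MCP, against 29.7, 30.6 and 32.9 in Veh (log2 −0.60, SE 0.11, adjusted p = 0.0423). Neither gene's groups overlapped. The call of Tcf7 was lost without any 1 of the Veh libraries (adjusted p = 0.138, 0.0738 and 0.144), and with no filter on low values (0.0582), and that of Furin without any 1 of the 6 libraries (adjusted p from 0.0504 to 0.224) and with each library centred (0.0987). In all, 40 of the 42 had negative differences, with a median of −0.32, and the exceptions were Aph1a (0.43) and Hdac1 (0.03), which did not pass. Over all tested genes 10057 of 14005 differences were negative, with a median of −0.18. With quantile normalization 32 of the 42 were negative, with a median of −0.15, beside 7086 of 14005 and −0.0049 over all genes.

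The genes whose values ran most like Notch1 across the 10 libraries of the CD93 experiment were Cenpl, Ints1 and Glo1, each with a Pearson r of 0.996 on log2(RPKM + 1). Across the 6 libraries of the drug experiment they were Insr (0.998), Setd1b (0.998) and Nfe2l2 (0.995). For Hes1 they were Socs1 (0.899), Gchfr (0.896) and Rnf187 (0.889) in the CD93 experiment, where Hes1 did not exceed 1.23 RPKM, and Pja1 (0.995), Brd1 (0.994) and Dip2b (0.992) in the drug experiment. These are the top 3 of 7146 to 8241 genes searched, the libraries share the group structure and the detection differences given above, and the lists of the 2 experiments have no gene in common.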

How the data were processed

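RNA of 16 sorted marrow samples was amplified with SMART-Seq v4, per the labels. Groups follow the sample titles; where titles of drug samples name LSC, their source field names LSK. Whether replicates are separate animals is not labelled, and p-values may thus measure technical spread. The authors deposited 1 normalized value per feature and library, read here as RPKM from the values themselves, since no label names the unit. The submitters' processing notes name build GRCm38 (mm10); neither aligner nor counter nor annotation is stated there. Columns summed to between 828690 and 1360625 RPKM. Counts are not among the files, so depth is unknown and no counting interval is given.

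The model was fitted to log2(value + 1) in limma 3.58.1 (R 4.3.3, variance trend), 1 model per experiment with 1 mean per group, on 13485 and 14005 genes that reached 1 RPKM in 2 or more libraries. P-values are two-sided, adjusted by Benjamini-Hochberg over all genes tested, with a threshold of 0.05. Fold changes are on the log2(value + 1) scale, which understates those of low genes. The model was tested on simulated data. Members, the 54 other pathway genes (at most 6 named per comparison) and markers were chosen with earlier results of these data known. The values of 1 called pathway gene are not reported here. Positions are from GENCODE M21 and windows from RefSeq. Same-numbered libraries did not deviate together, so the replicate number was not used as a block. Alternatives were quantile normalization, other filters, a pseudocount of 0.1, the block, library weights, only the compared groups, and leaving out each library. Centring of the drug libraries and a crossed block were added after seeing the data.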

Additional observations from a re-analysis of the deposited data

Results flagged for a closer look

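For 5 pathway genes the difference between genotypes in LSCs departed from that in LSK cells by the interaction test (limma, threshold on adjusted p). They were Rbpj, 1 of 9 member features tested, and 4 of 41 other pathway genes, beside 5.15% of all tested genes called with a negative and 0.934% with a positive interaction. Without WT LSC library 3, 1448 of all genes had a called negative and 110 a positive interaction, against 694 and 126 with it. Rbpj had an interaction of log2 −5.02, and was at 0.003 RPKM in KO LSC and above both WT values in KO LSK. Mib2 had −4.76 (adjusted p = 0.0132) and Spen −4.16 (adjusted p = 0.0381), both lower in KO LSC and overlapping between genotypes in LSK. Hes5 had −2.39 (adjusted p = 0.00764) and Pofut1 1.77 (adjusted p = 0.0209). These last values repeat the LSK differences with the sign turned, since both genes were at 0.003 in all 6 LSC libraries and their genotype difference there is 0. The call of Spen was lost without KO LSC library 2 or 3 or any 1 of the LSK libraries (adjusted p from 0.0576 to 0.117), under quantile normalization (0.642), with a pseudocount of 0.1 (0.114) and with library weights (0.99999), that of Pofut1 without KO LSC library 2 (0.0551) or 3 (0.0699), and that of Rbpj without KO LSC library 3, KO LSK library 2 or either WT LSK library (0.0507 to 0.0630) or under quantile normalization (0.0682). Mib2 was lost under quantile normalization (0.133) and with library weights (0.0781), and Hes5 under quantile normalization (0.252).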

How the results depend on the processing

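Counts of called member features moved as follows. KO LSC against WT LSC: 2 (1 higher, the first feature of Maml2, and 1 lower) under quantile normalization, 0 with only the compared groups, and 1 to 2 when a library was left out. That Maml2 feature was at 0.003 in all 6 LSC libraries, so the higher call compares no signal with no signal. Its log2 value of 0.47 was also that of Jag2, Mfng, Dtx2 and the second Maml2 feature, likewise at 0.003 in all LSC libraries. KO LSK against WT LSK: 0 to 1 when a library was left out. WT LSC against WT LSK: 3 under quantile normalization and 3 of 5 tested with a mean of at least 5. KO LSC against KO LSK: 3 under quantile normalization and 5 of 5 tested with a mean of at least 5. The interaction: 0 under quantile normalization and 0 with the replicate block (adjusted p = 0.0700 for Rbpj, 0.118 for Spen, 0.0766 for Mib2, 0.0668 for Hes5 and 0.104 for Pofut1, with limma calling 0 of all 13485 genes, 1836 at unadjusted p under 0.05), and 0 to 1 when a library was left out. MCP against Veh: 0 to 1 when a library was left out. No other member count moved by over 1.5 times under the alternatives run, and the block, whose numbers do not pair the libraries, changed no other member call. Among the other pathway genes named, the block ended the calls of Hes5 and Pofut1 (KO against WT LSK), and Tcf7 and Furin (MCP against Veh), with adjusted p of 0.0577, 0.132, 0.102 and 0.130. The numbers of KO and WT LSK libraries correlated at −0.282, and the crossed block called 0 members there.

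Signs turned in 21 of the single-gene values. The first feature of Maml2 in KO LSC against KO LSK was called in both directions, lower as deposited and higher under quantile normalization (adjusted p = 0.0105). Under quantile normalization they were, for KO against WT LSCs, Lfng 0.17 and Notch2 0.089; for WT LSC against WT LSK, Notch1 0.71, Notch2 0.0085 and the Maml2 features 0.25 and 0.27; for KO LSC against KO LSK, Jag2 0.28, Notch2 0.16, Tle3 0.29 and the Maml2 features 0.59 and 0.25; and for the interaction, Jag2 0.37, the first feature of Maml2 0.34 and Notch2 0.15. With a library left out, Jag2 ranged over −0.071 to 0.25 and Notch1 over −0.19 to 0.61 (KO against WT LSK), Jag2 over −0.25 to 0.071 and Notch2 over −0.61 to 0.36 (interaction), and the second feature of Maml2 over −0.070 to 0.73 (MCP against Veh). All 11 member features and Tle3 were at 0.003 in all 3 KO LSC libraries. Their positive values for KO LSC against KO LSK, the higher Maml2 call included, rest on the level that quantile normalization gives to no signal. They do not measure RNA detected in KO LSC. Lfng and Notch2 had no signal in KO LSC, so their positive values for KO against WT LSCs rest on that level as well. So do those of the Maml2 features for WT LSC against WT LSK, since both were at 0.003 in all 3 WT LSC libraries. The cause of the other sign changes was not tested. Rescaling libraries to equal totals kept 42 of 49 group means within 1 SD. Depth is unknown, so a listed lowest value sets no limit on expression.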
